A study of Mus musculus with 17 samples.

Results

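The enzymes that take glucose to pyruvate, pass pyruvate to lactate or into mitochondria, and run the pentose phosphate pathway were followed in sorted mouse β cells with and without PCBP2, an RNA-binding protein. The 37 genes were grouped by pathway and chosen with earlier results of these data known. They are 7 of upper and 6 of lower glycolysis, 3 of lactate metabolism, 2 of the mitochondrial pyruvate carrier and 5 of the pyruvate dehydrogenase complex. The others are 4 kinases of that complex, 3 genes of the oxidative and 4 of the non-oxidative pentose phosphate pathway. To these come 2 genes of the glycerol phosphate shuttle and *Fbp1*. All 37, of 55357 gene identifiers quantified, passed the filter on low counts, which kept 22784 genes. Male mouse islets were left to recover after isolation and then held for 72 h in glucose at 2.8 mM or at 16.7 mM, and live tdTomato+ cells were sorted for polyA RNA sequencing. Control cells, called WT in the labels, gave 3 samples at 2.8 mM and 4 at 16.7 mM, and *Pcbp2*βKO cells gave 5 samples at each concentration. Controls carried RIP-Cre and the tdTomato reporter, and knockout mice carried the same 2 transgenes with both *Pcbp2* alleles floxed (*Pcbp2* fl/fl), so all groups share the Cre driver and the reporter, on a C57BL/6 background. RIP-Cre is driven by the rat insulin promoter, recombination is limited to cells that express it, and the age of the mice is not given in the sources used here. Nothing states that samples of a group came from separate animals, so p values measure the spread between these samples, which may be technical.

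β cells oxidise glucose as the signal for insulin release. Glycolysis splits glucose into pyruvate, most of which enters mitochondria through the pyruvate carrier and is oxidised by the pyruvate dehydrogenase complex, which pyruvate dehydrogenase kinases switch off. β cells are known for unusually low lactate dehydrogenase A and monocarboxylate transporter 1 (*Slc16a1*), so that little pyruvate leaves as lactate, and for a glycerol phosphate shuttle that carries cytosolic reducing equivalents into mitochondria, while the oxidative pentose phosphate enzymes make NADPH.

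Pyruvate kinase M, the last step of glycolysis, is shown in sequence because its 2 main transcripts differ in a single mutually exclusive coding exon. *Pkm*-202 holds the M1 exon and *Pkm*-201 the M2 exon, each exon 9 of 11 in its transcript, while 9 of the 11 exons are the same in both, by the GENCODE annotation of GRCm39. The M1 exon lies at chr9:59582312-59582478 and the M2 exon at chr9:59582851-59583017 on the plus strand of GRCm39. Each is 167 bases long, 64 bases differ, and the identity is 61.7%. Capitals mark the bases that differ between both exons at the same position.
*Pkm*-202, M1 exon: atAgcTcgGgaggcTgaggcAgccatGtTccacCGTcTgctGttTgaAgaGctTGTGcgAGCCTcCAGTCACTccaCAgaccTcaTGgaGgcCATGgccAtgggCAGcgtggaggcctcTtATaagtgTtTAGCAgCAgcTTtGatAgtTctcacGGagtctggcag
*Pkm*-201, M2 exon: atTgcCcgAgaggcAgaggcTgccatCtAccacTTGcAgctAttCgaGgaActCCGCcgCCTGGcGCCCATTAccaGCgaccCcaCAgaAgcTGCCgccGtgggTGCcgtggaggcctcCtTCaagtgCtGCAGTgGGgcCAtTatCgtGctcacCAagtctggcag

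Promoter windows are shown for *Pkm* and *G6pdx*, which rose with glucose in both genotypes, and for *Ldha*, which had the largest glucose estimate of the 37 genes in both genotypes. Each runs from 250 bases before to 50 after a transcription start, from RefSeq (GRCm38.p6). The motifs searched, on both strands, were the E-box CACGTG and the core of the hypoxia response element, ACGTG, which also lies within every E-box. Capitals mark matches to either motif. The *Ldha* window, on the plus strand, holds 2 E-boxes and 1 further ACGTG. The *Pkm* window, also on the plus strand, holds 2 ACGTG and the *G6pdx* window, on the minus strand, holds 1.
*Ldha*, chr7:46845554-46845853: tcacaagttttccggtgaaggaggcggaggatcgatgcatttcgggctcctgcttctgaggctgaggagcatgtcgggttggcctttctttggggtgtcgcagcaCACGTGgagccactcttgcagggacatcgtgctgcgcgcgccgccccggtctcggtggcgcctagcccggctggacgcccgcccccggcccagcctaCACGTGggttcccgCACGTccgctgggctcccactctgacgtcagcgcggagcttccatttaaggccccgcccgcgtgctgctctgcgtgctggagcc
*Pkm*, chr9:59656977-59657276: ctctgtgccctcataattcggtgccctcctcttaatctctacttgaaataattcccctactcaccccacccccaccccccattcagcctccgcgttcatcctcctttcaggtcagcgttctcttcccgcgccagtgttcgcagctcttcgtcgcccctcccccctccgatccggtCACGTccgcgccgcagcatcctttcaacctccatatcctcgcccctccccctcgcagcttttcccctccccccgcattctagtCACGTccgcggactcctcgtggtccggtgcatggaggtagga
*G6pdx*, chrX:74428831-74429130: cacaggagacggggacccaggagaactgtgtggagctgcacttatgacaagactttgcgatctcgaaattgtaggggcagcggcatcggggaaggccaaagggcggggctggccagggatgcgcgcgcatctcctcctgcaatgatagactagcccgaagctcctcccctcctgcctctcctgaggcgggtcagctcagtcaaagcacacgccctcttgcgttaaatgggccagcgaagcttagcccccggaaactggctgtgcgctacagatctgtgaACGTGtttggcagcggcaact
Both *Ldha* and *Pkm* have a further listed window without either motif. Among the other genes that rose in both genotypes, the listed windows of *Pgd* hold neither motif and that of *Pdk3* holds 1 ACGTG. Over the 51 windows of the 36 genes that could be matched (all but *Gpd1*), an E-box stood in 4 (7.8%), against 7.2% of 32851 windows of all genes, and ACGTG in 16 (31.4%), against 19.6%. These matches describe letters only.

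Total estimated counts ranged from 47385513 to 82419400 per sample, and values are given as CPM, counts scaled to the library total, after TMM scaling, with factors from 0.752 to 1.288. *Pcbp2* stood at 50.7 to 73.4 CPM in control cells at 2.8 mM and 35.0 to 45.4 CPM at 16.7 mM, against 15.5 to 19.2 and 5.81 to 10.03 CPM in *Pcbp2*βKO cells. The insulin gene *Ins2* took 8.9% to 9.03% of counts in control cells at 2.8 mM and 18.2% to 25.67% at 16.7 mM, and 4.92% to 10.36% and 20.67% to 24.75% in *Pcbp2*βKO cells, so a change relative to all counts and a change after TMM scaling are not the same quantity. On the first principal component (30% of the variance), control replicate 4 and *Pcbp2*βKO replicates 4 and 5 at 16.7 mM lay at 9.9, 21.4 and 33.2, while the other samples at 16.7 mM lay from 90.9 to 99.1 and those at 2.8 mM from -105.5 to -42.4. Summed alpha cell markers reached 638 to 2566 CPM in control cells at 2.8 mM, 262 to 1463 at 16.7 mM, 1473 to 9196 in *Pcbp2*βKO cells at 2.8 mM and 174 to 1322 at 16.7 mM, whereas acinar markers summed to at most 0.245 CPM. With glucose, 5 of 8 β cell markers rose in control cells and 7 in *Pcbp2*βKO cells, while of the alpha, delta, PP and macrophage markers tested (4, 3, 2 and 3) 0, 1, 0 and 1 fell in control cells and 2, 2, 2 and 3 in *Pcbp2*βKO cells (edgeR), and 0 acinar, duct, endothelial or stellate markers were called. In such bulk samples, fewer cells of a type and less RNA per cell cannot be told apart.

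Levels per transcript length (TPM) placed aldolase A, the enzyme that cleaves fructose bisphosphate, first of the 37 genes in control cells at 2.8 mM (964 ± 343 TPM, SD, n = 3). *Gapdh*, glyceraldehyde phosphate dehydrogenase, followed at 838 ± 201 TPM and *Pkm* at 464 ± 118 TPM. Between samples, the ranges of *Aldoa* (702 to 1352 TPM) and *Gapdh* (686 to 1066 TPM) overlap, and their order within each sample was not tested. Among paralogs, *Aldoa* held 98.9% of aldolase TPM beside *Aldoc*, and *Pfkl*, the liver-type phosphofructokinase, held 57.4% of phosphofructokinase TPM, *Pfkp* 26.8% and *Pfkm* 15.7%. *Ldhb* was the main lactate dehydrogenase at 16.4 ± 1.89 TPM, against 2.90 TPM on average for *Ldha*. *Slc16a1* was lowest of all, with means of 0.24 TPM in control cells at 2.8 mM, 0.08 at 16.7 mM, 0.23 in *Pcbp2*βKO cells at 2.8 mM and 0.04 at 16.7 mM, and 1 control sample at 16.7 mM had no count.

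**Figure D1:**
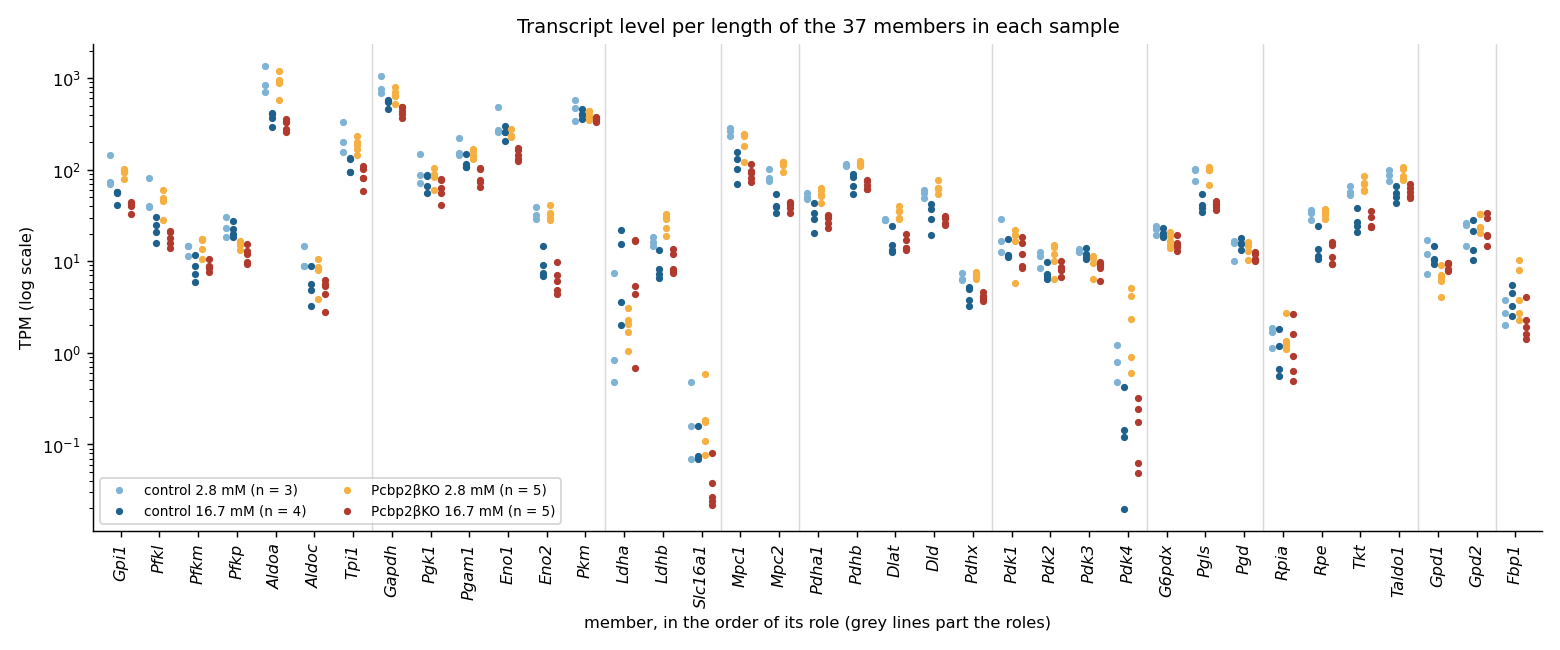
TPM (log axis) of the 37 genes in order of pathway role, with a point for each of the 17 samples coloured by group. *Aldoa*, *Gapdh* and *Pkm* sit at the top and *Slc16a1* at the bottom, where its 1 sample with a value of 0 cannot be drawn.

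The first comparison asked how these enzymes responded to high glucose in control cells. A gene counted as changed, or called, where the adjusted p was below 0.05 with a fold above 1.5. Of the 37 genes 6 were called (16.2%), against 13.8% of all genes tested. The share of the pathway that changed was thus close to the background in this fit, which does not pair samples. *Pkm*, *Pdk3*, *G6pdx*, *Pgd* and *Gpd1* rose, 5 of 37 against 7.15% of all genes, and *Eno2* fell, 1 of 37 against 6.69%. An unadjusted p under 0.05 was reached by 10 genes (29.3% of all genes), and 7 had glucose groups without overlap (24.1% of all genes). After TMM scaling, the median log2 fold change of the 37 genes was 0.10, against 0.038 over all genes. With the replicate number as a block, 10 were called, against 21% of all genes in the same fit, with *Pfkp*, *Ldha* and *Fbp1* joining the higher and *Pdk4* the lower. The fit with the block held all 17 samples, with the same replicate terms in both genotypes. With the 4 samples numbered 1 left out, 0 were called by edgeR (2.4% of all genes), and the estimates of the 6 genes ran from -1.11 to 0.96 with adjusted p of 0.06 to 0.253.

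High glucose changed 11 of the 37 genes (29.7%) in *Pcbp2*βKO cells, against 23.8% of all genes tested, with 9 higher (13.4% of all genes) and 2 lower (10.4%). An unadjusted p under 0.05 was reached by 22 (39.7% of all genes), and 11 had groups without overlap (21.6%). All 6 genes of the control comparison were among them, in the same direction, and *Pfkp*, *Ldha*, *Pdk1*, *Gpd2* (higher) and *Pdk4* (lower) were called in *Pcbp2*βKO cells alone. Larger groups stand behind this comparison, and no gene of the 37 passed the edgeR or DESeq2 test of the difference between the genotypes' responses (2 at an unadjusted p under 0.05). After TMM scaling, the median log2 fold change was 0.25, against 0.012 over all genes. Of the 11, *Pdk1* and *Gpd2* were no longer called without the 3 samples that lay apart on the first component, at log2 fold changes of 0.53 and 0.54 (edgeR adjusted p = 0.182 and 0.0561).

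The direction of the rises depends on what a value is measured against. On CPM of all counts, without TMM factors, the median gene moved by -0.35 in control and -0.47 in *Pcbp2*βKO cells (log2), and on log2(TPM + 1) by -0.24 and -0.33. The median of the 37 genes moved by -0.29 and -0.23 on total counts, above the median gene. It moved by -0.63 and -0.72 on log2(TPM + 1), below the median gene. The summed TPM of the 37 genes was 3700.3 to 5523.9 in control cells at 2.8 mM and 2454.8 to 2693.6 at 16.7 mM, and 3091.5 to 4360.8 and 1909.2 to 2248.5 in *Pcbp2*βKO cells, with no overlap between glucose concentrations. All 5 control rises stayed above the median gene on both scales, but on log2(TPM + 1) only *Pgd* of the 5 stayed above 0. On total counts the calls in control cells were 0 higher and 7 lower (21.2% of all genes called in either direction), with none of the 5 rises called (edgeR adjusted p = 0.0592 to 0.409), and in *Pcbp2*βKO cells 2 higher and 13 lower (34.5% of all genes). Of the *Pcbp2*βKO rises, 9 of 9 stayed above the median gene on total counts and 8 of 9 on log2(TPM + 1), all but *Pfkp*, and only *Ldha* and *Gpd1* stayed above 0 on the latter. On log2(TPM + 0.1) 9 of 9 stayed above the median gene, *Pfkp* included. The falls of *Eno2* and *Pdk4* kept their sign on every scale. A rise below therefore means a rise relative to the typical gene of the same sample.

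**Figure D2:**
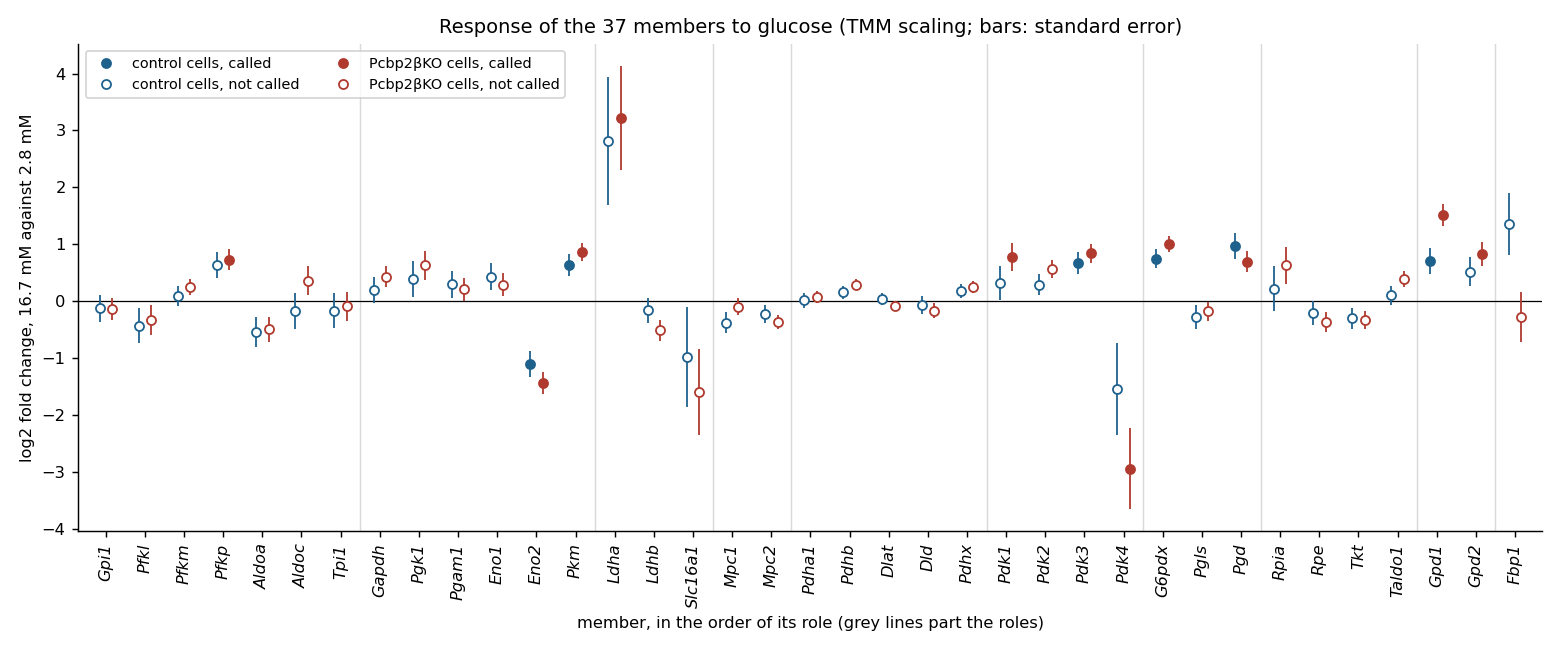
Log2 fold change at 16.7 mM against 2.8 mM (vertical axis, TMM scaling) of each of the 37 genes in order of role, in control and *Pcbp2*βKO cells, with bars for the standard error. *Ldha* has the highest estimates and *Pdk4* the lowest, both with wide errors, and *Eno2* lies below 0 in both genotypes, while rises such as that of *Pkm* turn to -0.17 in control cells and -0.16 in *Pcbp2*βKO cells on log2(TPM + 1).

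In upper glycolysis, 0 of 7 genes were called in control cells by edgeR (1 at an unadjusted p under 0.05, 1 called by DESeq2) and 1 of 7 in *Pcbp2*βKO cells, the platelet-type phosphofructokinase *Pfkp*. *Pfkp* stood at 96.2, 59.1 and 65.4 CPM in control cells at 2.8 mM and at 128, 141, 113 and 74.8 CPM at 16.7 mM. It stood at 39.1, 45.1, 35.3, 38.6 and 52.2 CPM at 2.8 mM and at 81.8, 86.8, 60.5, 66.4 and 52.2 CPM at 16.7 mM in *Pcbp2*βKO cells. All 5 knockout samples at low glucose lay below every control sample, and the glucose groups overlapped in both genotypes. The log2 fold change with glucose was 0.73 ± 0.19 (SE) in *Pcbp2*βKO cells (1.65-fold, edgeR adjusted p = 0.00645) and 0.64 ± 0.23 in control cells (adjusted p = 0.0643, and 0.0219 with the replicate block), and both estimates turn below 0 on log2(TPM + 1), at -0.37 and -0.11. Within the phosphofructokinase family, *Pfkp* went from 26.8% to 41.4% of TPM in control cells and from 20.9% to 30.7% in *Pcbp2*βKO cells, shares to which the scaling between samples does not apply, and *Pfkl* from 57.4% to 42.6% and from 59.0% to 46.1%.

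*Aldoa* was at 1869, 1184 and 885 CPM in control cells at 2.8 mM and at 1240.3, 1015, 675 and 681 CPM at 16.7 mM, with overlapping groups. In *Pcbp2*βKO cells it was at 1554, 1121, 979, 1031 and 820.3 CPM at low and 935, 856, 694, 748 and 676 CPM at high glucose. Its log2 fold changes of -0.54 ± 0.26 and -0.49 ± 0.22 did not pass (edgeR adjusted p = 0.178 and 0.0984). The phosphohexose isomerase *Gpi1*, *Pfkl*, *Pfkm*, *Aldoc* and the triose phosphate isomerase *Tpi1* were not called in either genotype, and over the 7 genes log2 fold changes ran from -0.54 to 0.64 in control and from -0.49 to 0.73 in *Pcbp2*βKO cells.

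In lower glycolysis, *Pkm* rose and *Eno2* fell in both genotypes, and *Gapdh*, the phosphoglycerate kinase *Pgk1*, the phosphoglycerate mutase *Pgam1* and *Eno1* passed in neither. *Pkm* stood at 1303, 796 and 987 CPM in control cells at 2.8 mM and at 2254, 1491, 1461 and 1219.5 CPM at 16.7 mM, where the lowest sample at high glucose lay under the highest at low glucose. The knockout samples were at 834, 689, 782, 793 and 867 CPM at 2.8 mM and at 1604, 1426, 1444, 1333 and 1418 CPM at 16.7 mM, with no overlap. The log2 fold changes were 0.64 ± 0.19 (1.56-fold, edgeR adjusted p = 0.0301) and 0.87 ± 0.16 (1.82-fold, adjusted p = 0.000519). The control call was lost without replicate 2 or 3 at 2.8 mM or replicate 1 at 16.7 mM, with adjusted p of 0.169, 0.087 and 0.0958.

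*Eno2*, the γ-enolase typical of neurons and endocrine cells, was at 77.4, 105 and 70.5 CPM in control cells at 2.8 mM and at 34.3, 41.5, 30.1 and 50.8 CPM at 16.7 mM. The *Pcbp2*βKO samples were at 67.8, 96.4, 65.4, 69.0 and 78.5 CPM at 2.8 mM and at 21.6, 26.6, 19.7, 40.1 and 31.1 CPM at 16.7 mM. In both genotypes every sample at high glucose was below every sample at low glucose. *Eno2* fell by 1.11 ± 0.23 on the log2 scale in control cells (edgeR adjusted p = 0.00448) and by 1.44 ± 0.20 in *Pcbp2*βKO cells (2.71-fold lower, adjusted p = 4.41e-05), and each call held with any 1 sample left out. Its share of enolase TPM went from 9.66% to 3.78% and from 12.1% to 4.12%, the remainder being the ubiquitous *Eno1*.

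*Gapdh*, often used as a reference gene, was at 1375, 1014 and 816 CPM in control cells at 2.8 mM and at 1615, 1324, 1169 and 792 CPM at 16.7 mM. The *Pcbp2*βKO samples gave 982, 792, 667, 670.2 and 697 CPM at low and 1271, 1094, 1102, 852 and 818 CPM at high glucose. Its log2 fold changes of 0.20 ± 0.23 and 0.43 ± 0.19 did not pass (edgeR adjusted p = 0.633 and 0.102), and in *Pcbp2*βKO cells the sign turned to -0.06 on total counts and to -0.60 on log2(TPM + 1).

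**Figure D3:**
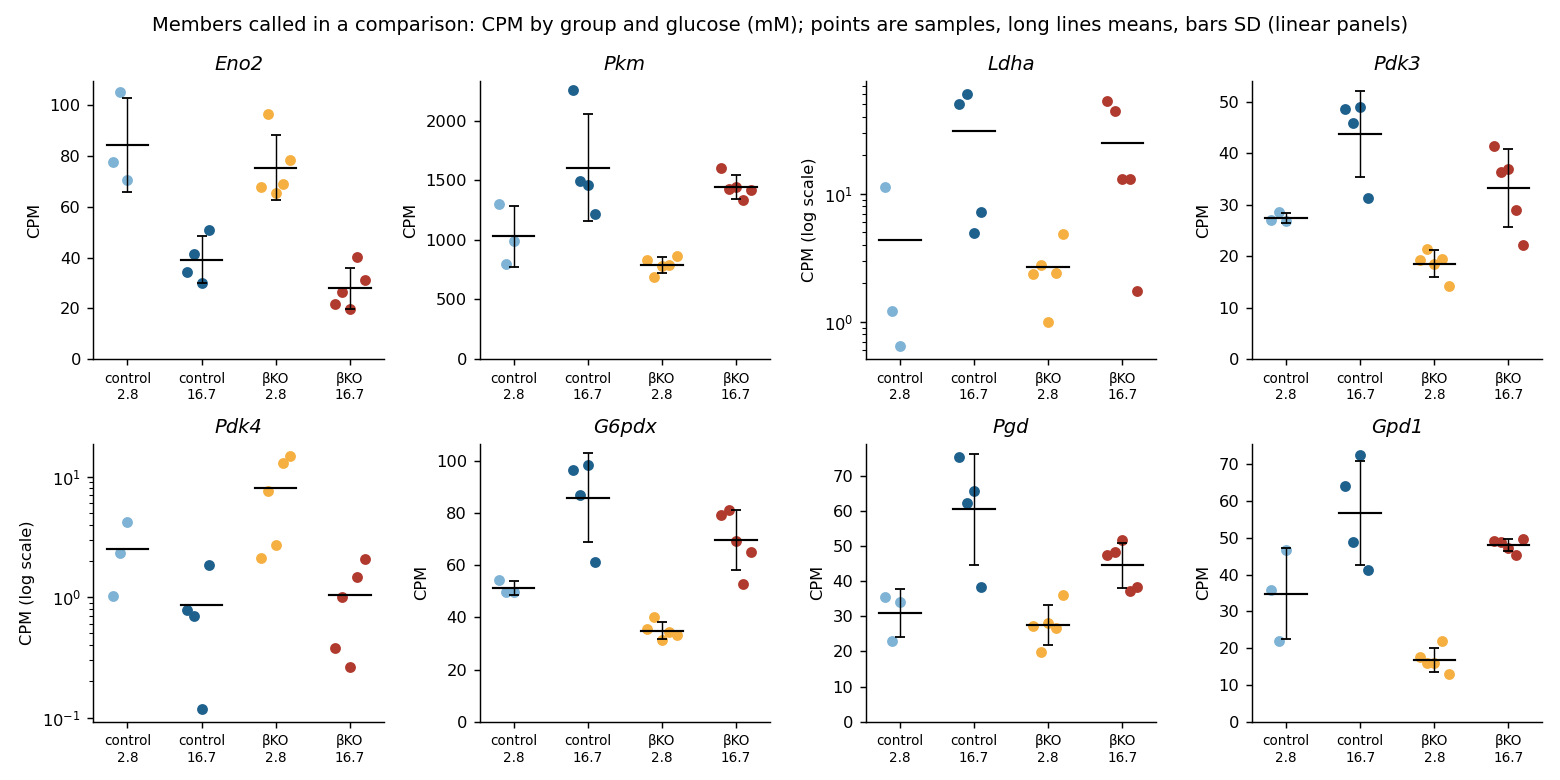
CPM (vertical axis, from 0, or log scaled for *Ldha* and *Pdk4*) by genotype and glucose for 8 of the 11 genes called in any comparison, with a point per sample and a line at the mean, and SD bars on the linear panels. *Eno2* drops and *G6pdx* climbs at 16.7 mM in both genotypes, with 0 overlap between glucose groups, although the climb of *G6pdx* turns to -0.12 and -0.13 on log2(TPM + 1), and *Gpd1* is lowest in *Pcbp2*βKO cells at 2.8 mM.

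The 2 main *Pkm* transcripts moved by different amounts. *Pkm*-201 (M2 exon) and *Pkm*-202 (M1 exon) together held 95.4% to 98.3% of *Pkm* TPM. The share of *Pkm*-201 in the pair was 53.3%, 56.1% and 55.3% in control cells at 2.8 mM and 62.8%, 66.8%, 64.0% and 60.1% at 16.7 mM, without overlap. Shares of 48.1%, 50.5%, 47.1%, 49.8% and 41.2% were found in *Pcbp2*βKO cells at 2.8 mM and of 60.7%, 60.1%, 59.9%, 55.6% and 43.4% at 16.7 mM, where replicate 5 was lowest at both concentrations. The shares thus averaged 54.9% ± 1.5 (SD, n = 3), 63.5% ± 2.8 (n = 4), 47.3% ± 3.7 (n = 5) and 56.0% ± 7.3 (n = 5) in these 4 groups. High glucose went with 8.6 percentage points more in control cells (two-sided exact permutation p = 0.0571, the smallest that 3 against 4 samples can give) and 8.6 points more in *Pcbp2*βKO cells (exact permutation p = 0.0476). The knockout went with 7.6 points less at 2.8 mM (exact permutation p = 0.0357, the smallest possible) and 7.5 points less at 16.7 mM (exact permutation p = 0.0476).

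*Pkm* was singled out after its values were seen. Over the 19 genes of the 37 whose leading transcript held 10% to 90% of the gene's TPM, 76 comparisons were made, and the lowest Benjamini-Hochberg adjusted exact permutation p was 0.362, so no share passed. With glucose in control cells the smallest possible exact permutation p is 0.0571, so no share could pass there. It is 0.00794 with glucose in *Pcbp2*βKO cells and 0.0357 and 0.0159 for the knockout at 2.8 and 16.7 mM. A single gene could therefore not pass over 76 comparisons. Groups did not overlap for 4 genes with glucose in control cells (*Gapdh*, *Pkm*, *Mpc1* and *Tkt*), of 19, against 12.4% of 12115 genes, and for 2 with the knockout at 2.8 mM (*Pkm* and *Tkt*), against 4.84%. With glucose in *Pcbp2*βKO cells there was 1, *Rpe* (background 7.71%), and with the knockout at 16.7 mM there were 0 (2.21%). Both exons have the same length, but the quantified *Pkm*-201 and *Pkm*-202 are 2432 and 2041 bases long in the deposited files and so differ outside this exon, and the effect of that on the estimated share was not tested. Shares of estimated counts gave differences of 8.1, 8.4, -7.5 and -7.2 points in the same order.

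**Figure D4:**
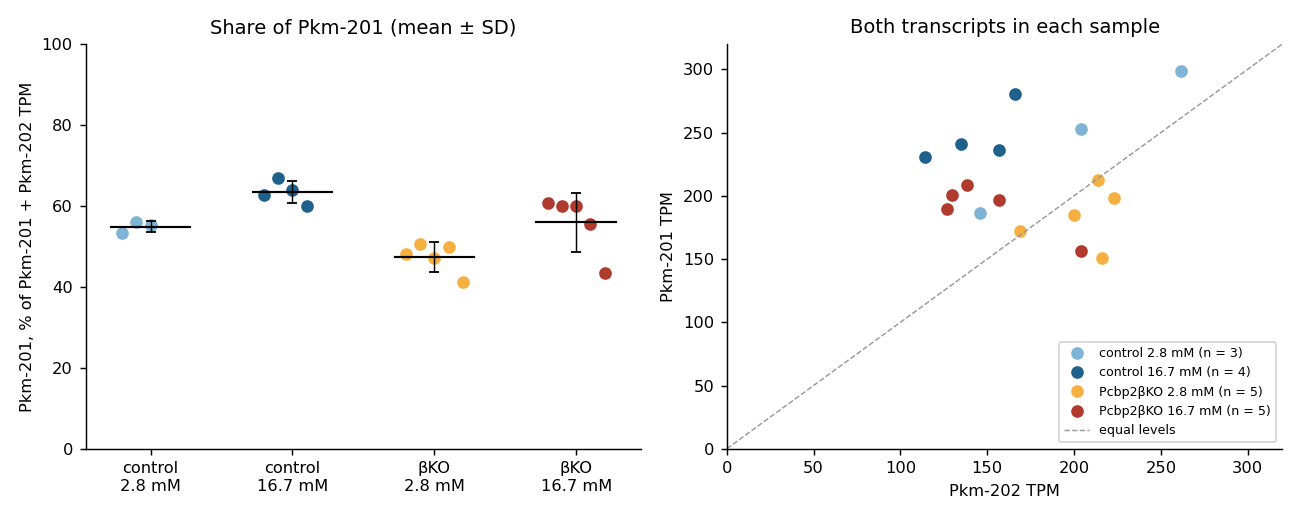
Left, *Pkm*-201 as a percentage of *Pkm*-201 plus *Pkm*-202 TPM in each sample, with group mean and SD. Right, TPM of *Pkm*-201 against *Pkm*-202, with a dashed line at equal levels. Control samples at 16.7 mM average 63.5% and *Pcbp2*βKO samples at 2.8 mM 47.3%.

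Of the lactate genes, only *Ldha*, which turns pyruvate into lactate, was called, in *Pcbp2*βKO cells. *Ldha* was at 11.3, 1.22 and 0.645 CPM in control cells at 2.8 mM and at 50.7, 60.5, 4.92 and 7.16 CPM at 16.7 mM. The knockout samples were at 2.36, 2.80, 0.997, 2.41 and 4.85 CPM at 2.8 mM and at 53.2, 44.2, 13.06, 12.97 and 1.76 CPM at 16.7 mM. Replicates 1 and 2 were the 2 highest samples at high glucose in both genotypes, *Pcbp2*βKO replicate 5 stayed within the low-glucose range, and the within-group SD of log2 CPM, 1.70, was larger than that of 99.1% of all genes tested. The log2 fold change was 3.22 ± 0.91 in *Pcbp2*βKO cells (9.3-fold, edgeR adjusted p = 0.0121), and 2.81 ± 1.12 in control cells did not pass (adjusted p = 0.098), though it did with the replicate block (3.16, adjusted p = 0.0198).

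*Ldhb* was at 20.6, 16.8 and 16.5 CPM in control cells at 2.8 mM and at 19.3, 12.8, 13.3 and 18.9 CPM at 16.7 mM. Levels in *Pcbp2*βKO cells were 24.8, 18.7, 29.8, 27.2 and 33.4 CPM at 2.8 mM and 17.1, 13.7, 16.8, 24.5 and 21.7 CPM at 16.7 mM. Its log2 fold change with glucose in *Pcbp2*βKO cells, -0.51 ± 0.18, passed the adjusted p (edgeR, 0.042) but not the fold of 1.5. *Ldha* went from 12.3% to 46.1% of lactate dehydrogenase TPM in control cells and from 7.29% to 41.2% in *Pcbp2*βKO cells, with SDs of 29.0 and 27.5 points at high glucose. *Slc16a1*, which exports lactate, had at most 2.48 CPM in any sample and was not called.

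No gene of the carrier or the pyruvate dehydrogenase complex was called by edgeR or DESeq2, with 1 of these 7 genes at an unadjusted p under 0.05 in control cells and 3 in *Pcbp2*βKO cells. *Mpc1* was at 165, 198 and 189 CPM in control cells at 2.8 mM and at 121, 135, 158 and 151 CPM at 16.7 mM, with no overlap. In *Pcbp2*βKO cells it was at 166, 154, 109, 139 and 91.3 CPM at 2.8 mM and at 139.6, 107, 109, 139 and 119 CPM at 16.7 mM, with overlap. Neither log2 fold change passed (-0.38 ± 0.18 and -0.10 ± 0.15, edgeR adjusted p = 0.168 and 0.67). *Mpc2*, the other carrier subunit, had an adjusted p of 0.0337 by edgeR in *Pcbp2*βKO cells but a fold under 1.5 (log2 fold change -0.37).

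*Pdhb*, a subunit of the E1 enzyme, was at 165, 163 and 157 CPM in control cells at 2.8 mM and at 170.5, 179, 199 and 172 CPM at 16.7 mM. The *Pcbp2*βKO samples gave 150.2, 157, 129, 140.0 and 168 CPM at low and 186, 175, 176, 177 and 195 CPM at high glucose. High-glucose samples lay above all low-glucose samples in both genotypes, by a small margin, with log2 fold changes of 0.16 ± 0.11 (edgeR adjusted p = 0.389) and 0.29 ± 0.09 (adjusted p = 0.0245), the latter turning to -0.19 on total counts and -0.73 on log2(TPM + 1). The other E1 subunit *Pdha1*, the acetyltransferase *Dlat*, the lipoamide dehydrogenase *Dld* and the binding subunit *Pdhx* were not called, and over the 5 genes of the complex log2 fold changes ran from -0.07 to 0.18 in control and from -0.17 to 0.29 in *Pcbp2*βKO cells.

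Of the 4 kinases that inhibit the complex, *Pdk3* was called higher in both genotypes, and *Pdk1* higher and *Pdk4* lower in *Pcbp2*βKO cells. *Pdk3* was at 27.1, 28.6 and 26.8 CPM in control cells at 2.8 mM and at 48.7, 46.0, 49.1 and 31.3 CPM at 16.7 mM. The knockout samples were at 19.2, 21.5, 18.5, 19.4 and 14.2 CPM at 2.8 mM and at 41.4, 36.4, 36.9, 29.1 and 22.3 CPM at 16.7 mM. No glucose groups overlapped in either genotype, and the 3 samples apart on the first component were the lowest of their genotype at high glucose. *Pdk3* rose by 0.67 ± 0.20 (log2, 1.59-fold, edgeR adjusted p = 0.0305) and 0.84 ± 0.16 (1.79-fold, adjusted p = 0.00092), the former lost under all but 1 of the 7 omissions of a sample (highest adjusted p 0.0964) and called with the replicate block (0.74, adjusted p = 0.00116).

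*Pdk4*, the kinase induced in fasting, was at 1.03, 2.31 and 4.23 CPM in control cells at 2.8 mM and at 0.777, 0.695, 0.118 and 1.85 CPM at 16.7 mM. Levels in *Pcbp2*βKO cells were 2.11, 7.66, 2.71, 13.01 and 14.74 CPM at 2.8 mM and 0.376, 0.995, 0.262, 1.47 and 2.08 CPM at 16.7 mM. The knockout samples at low glucose were uneven, with replicates 2, 4 and 5 above replicates 1 and 3. *Pdk4* fell by 2.95 ± 0.71 on the log2 scale with glucose in *Pcbp2*βKO cells (7.7-fold lower, edgeR adjusted p = 0.004) and the -1.55 in control cells did not pass (adjusted p = 0.214, and 0.009 with the replicate block). Summed alpha cell markers were also highest in replicates 2, 4 and 5 of these knockout samples, at 6532, 9196 and 5326 CPM, against 1473 and 1985 CPM in replicates 1 and 3. Delta cell markers summed to 496, 480, 829, 1203 and 1316 CPM in replicates 1 to 5, and PP cell markers to 1431, 2163, 2351, 3670 and 7425 CPM. Both of these sums were highest in replicates 4 and 5 but lower in replicate 2 than in replicate 3. The part of other cell types in the result was not tested.

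*Pdk1*, the kinase with the highest TPM of the family, was at 106, 48.7 and 63.0 CPM in control cells at 2.8 mM and at 87.6, 88.4, 86.7 and 97.6 CPM at 16.7 mM. The knockout cells gave 84.8, 58.5, 52.5, 56.7 and 25.7 CPM at 2.8 mM and 87.7, 92.4, 67.2, 109.8 and 121 CPM at 16.7 mM. Only the knockout change passed (log2 0.78 ± 0.25, 1.72-fold, edgeR adjusted p = 0.0236), and it was lost without replicate 5 at 16.7 mM (0.68, adjusted p = 0.0564). *Pdk2* had a log2 fold change of 0.57 in *Pcbp2*βKO cells (edgeR adjusted p = 0.0088), just under the fold of 1.5, and the estimates of *Pdk1*, *Pdk2* and *Pdk3* there turned to -0.30, -0.39 and -0.18 on log2(TPM + 1).

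The 2 NADPH-forming enzymes of the oxidative pentose phosphate pathway rose together, while the lactonase *Pgls* between them did not pass. *G6pdx*, glucose-6-phosphate dehydrogenase, was at 54.4, 49.8 and 49.7 CPM in control cells at 2.8 mM and at 96.6, 87.1, 98.6 and 61.4 CPM at 16.7 mM. The *Pcbp2*βKO samples gave 35.5, 40.1, 31.2, 34.2 and 33.4 CPM at low and 79.5, 81.4, 69.4, 52.8 and 65.3 CPM at high glucose. Every high-glucose sample lay above every low-glucose sample of its genotype. *G6pdx* rose by 0.74 ± 0.17 (log2, 1.67-fold, edgeR adjusted p = 0.00716) and 1.00 ± 0.14 (2.00-fold, adjusted p = 5.25e-05), held with any 1 sample left out, and turned to -0.12 and -0.13 on log2(TPM + 1).

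*Pgd*, phosphogluconate dehydrogenase, was at 35.5, 23.0 and 34.0 CPM in control cells at 2.8 mM and at 75.4, 62.3, 65.8 and 38.2 CPM at 16.7 mM. The knockout samples were at 27.2, 19.8, 28.2, 26.6 and 35.9 CPM at 2.8 mM and at 47.3, 48.2, 51.6, 37.2 and 38.3 CPM at 16.7 mM. Groups did not overlap in either genotype. The rises were 0.97 ± 0.23 (log2, 1.96-fold, edgeR adjusted p = 0.00858) and 0.69 ± 0.19 (1.62-fold, adjusted p = 0.00838), the first lost without control replicate 2 at 2.8 mM (0.80, adjusted p = 0.0656) and the second turning to -0.30 on log2(TPM + 1).

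*Pgls* was at 80.9, 81.8 and 57.5 CPM in control cells at 2.8 mM and at 94.5, 50.8, 50.6 and 46.0 CPM at 16.7 mM, and log2 fold changes of -0.28 ± 0.20 and -0.18 ± 0.17 did not pass (edgeR adjusted p = 0.396 and 0.467). Levels in *Pcbp2*βKO cells were 79.8, 67.6, 69.9, 66.4 and 61.5 CPM at 2.8 mM and 62.5, 60.6, 66.8, 61.1 and 53.1 CPM at 16.7 mM. In the non-oxidative branch, which interconverts sugar phosphates, the isomerase *Rpia*, the epimerase *Rpe*, the transketolase *Tkt* and the transaldolase *Taldo1* were not called by edgeR or DESeq2 (0 and 2 of the 4 at an unadjusted p under 0.05). *Taldo1* was at 111, 101 and 76.4 CPM, against 135, 87.1, 91.9 and 97.8 CPM, in control cells, and at 89.5, 73.5, 92.4, 94.8 and 95.6 CPM, against 118, 95.3, 125, 113 and 135 CPM, in *Pcbp2*βKO cells (log2 fold changes 0.10 ± 0.17 and 0.39 ± 0.14, edgeR adjusted p = 0.752 and 0.041, the second under the fold of 1.5 and -0.63 on log2(TPM + 1)). *Tkt* and *Rpia* counts lay mostly on transcripts not annotated as protein-coding, with 18% and 31.6% on protein-coding transcripts.

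The glycerol phosphate shuttle rose with glucose as a pair in *Pcbp2*βKO cells. *Gpd1*, its cytosolic enzyme, was at 35.7, 22.0 and 46.7 CPM in control cells at 2.8 mM and at 64.0, 49.0, 72.6 and 41.3 CPM at 16.7 mM. In *Pcbp2*βKO cells it was at 17.6, 15.9, 16.1, 21.9 and 12.9 CPM at 2.8 mM and at 49.0, 48.7, 47.1, 45.4 and 49.7 CPM at 16.7 mM, 2 narrow and separate ranges. *Gpd1* rose by 0.70 ± 0.23 (log2, 1.63-fold, edgeR adjusted p = 0.0426) in control cells, a call lost under 5 of the 7 omissions of a sample (highest adjusted p 0.225), and by 1.51 ± 0.19 (2.85-fold, adjusted p = 2.24e-05) in *Pcbp2*βKO cells, held under all 10, and on log2(TPM + 1) the control estimate was -0.03.

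*Gpd2*, the mitochondrial enzyme, was at 85.7, 49.1 and 71.5 CPM in control cells at 2.8 mM and at 122, 60.6, 77.9 and 134 CPM at 16.7 mM. The *Pcbp2*βKO samples gave 73.8, 62.6, 85.9, 81.5 and 68.2 CPM at low and 106, 109, 118, 144 and 184 CPM at high glucose, without overlap. The change passed in *Pcbp2*βKO cells (log2 0.83 ± 0.21, 1.78-fold, edgeR adjusted p = 0.00614, and -0.22 on log2(TPM + 1)) and not in control cells (0.52 ± 0.26, adjusted p = 0.192). *Fbp1*, a gluconeogenic phosphatase of low level here, was at 3.85, 2.90 and 4.86 CPM, against 16.9, 8.23, 9.88 and 4.65 CPM, in control cells, and at 3.60, 2.56, 4.24, 9.07 and 14.8 CPM, against 6.55, 3.88, 3.86, 4.31 and 9.60 CPM, in *Pcbp2*βKO cells. Its log2 fold changes of 1.35 ± 0.54 and -0.28 ± 0.43 did not pass (edgeR adjusted p = 0.101 and 0.689).

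The second comparison asked what the loss of PCBP2 changed at each glucose concentration. At 2.8 mM, 1 of the 37 genes (2.7%) was called, against 2.04% of all genes tested (1.78% called lower). In all, 9 had an unadjusted p under 0.05 (12.9% of all genes). Estimates were below 0 for 28 of 37, against 46.6% of all genes (median -0.16, all genes 0.031). The median of the 37 was -0.049, -0.2 and -0.277 without control replicates 1, 2 and 3 in turn. It was -0.095 without the samples numbered 1. *Gpd1*, at 35.7, 22.0 and 46.7 CPM in control and 12.9 to 21.9 CPM in *Pcbp2*βKO cells, fell by 1.05 ± 0.21 on the log2 scale (edgeR adjusted p = 0.00951). The groups almost touch, between control replicate 2 at 22.0 CPM and *Pcbp2*βKO replicate 4 at 21.9 CPM, and the call was lost without control replicate 3 (-0.78, adjusted p = 0.122) and in the set without the samples numbered 1 (-1.05, adjusted p = 0.132). The call was also lost on log2(TPM + 1) and log2(TPM + 0.1), where limma gave -0.74 and -0.81 (adjusted p = 0.126 and 0.143), and the TPM of the groups overlap, at 7.19 to 16.99 in control and 4.12 to 9.03 in *Pcbp2*βKO cells. Of the 37 genes 5, *Pfkp*, *Dlat*, *Pdk3*, *G6pdx* and *Gpd1*, had groups that did not overlap (10.9% of all genes did). *Pfkp* (log2 fold change -0.81, edgeR adjusted p = 0.0541), *G6pdx* (-0.56, adjusted p = 0.08) and *Pdk3* (-0.57, adjusted p = 0.153) missed the threshold.

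At 16.7 mM, 0 of the 37 genes were called by edgeR (1.71% of all genes tested were, 1.42% as lower), 5 had an unadjusted p under 0.05 (12.1% of all genes), and 0 had groups without overlap (4.49%). DESeq2 called 2, *Eno1* and *Pfkp*. *Eno1*, the ubiquitous enolase, was at 1279, 927, 835 and 544 CPM in control and 536, 504, 481, 527 and 569 CPM in *Pcbp2*βKO cells, so control replicate 4 lay within the knockout range. The log2 fold changes were -0.78 ± 0.21 for *Eno1* and -0.72 ± 0.20 for *Pfkp* (edgeR adjusted p = 0.0751 and 0.0768). At 2.8 mM, *Eno1* was at 971, 533 and 493 CPM in control and 436, 389, 372, 451 and 495 CPM in *Pcbp2*βKO cells (-0.64 ± 0.23, adjusted p = 0.202). All 6 lower glycolysis genes had estimates below 0 in both knockout comparisons and 0 of them passed (edgeR), with 2 at an unadjusted p under 0.05 in each and, at 16.7 mM, 1 called by DESeq2. Of all genes, 46.6% at 2.8 mM and 48.6% at 16.7 mM had estimates below 0. Among these 6, *Gapdh* and *Pgk1* were highest in the sample numbered 1 of all 4 groups, *Pgam1* and *Pkm* of 3, *Eno1* of 2 and *Eno2* of 0. The ratio of that sample to the mean of the others of its group is given for control at 2.8 and 16.7 mM, then *Pcbp2*βKO cells. It was 1.89, 1.66, 1.02 and 1.03 for *Eno1* and 1.46, 1.62, 1.07 and 1.14 for *Pkm*. It was 1.56, 1.15, 1.26 and 1.5 for *Pgam1* and 0.882, 0.84, 0.877 and 0.735 for *Eno2*.

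The third comparison asked whether the knockout changed the response to glucose. The interaction between genotype and glucose passed for 0 of the 37 genes in edgeR and in DESeq2 (0.00439% of all genes tested in edgeR), and 2 had an unadjusted p under 0.05 (4.57% of all genes). *Gpd1* had an interaction of 0.81 ± 0.29 (log2, unadjusted p = 0.0124, adjusted p = 1, edgeR), with low-glucose levels below control and high-glucose levels of 45.4 to 49.7 CPM inside the control range of 41.3 to 72.6 CPM. *Fbp1* had -1.64 ± 0.69 (unadjusted p = 0.0295, adjusted p = 1, edgeR). *Ldha*, *Pdk1*, *Pdk4*, *Gpd2* and *Pfkp*, called for glucose in *Pcbp2*βKO cells alone, are therefore not shown to respond differently in the 2 genotypes.

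The samples numbered 1 stood apart for part of glycolysis. *Gpi1*, *Pfkl*, *Aldoa*, *Aldoc*, *Tpi1*, *Gapdh* and *Pgk1*, 7 of the 37 genes (18.9%), had their highest CPM in the sample numbered 1 of all 4 groups, against 158 of 22784 genes tested (0.693%). For the samples numbered 2 and 3 the counts were 0 of the 37 genes each (1.52% and 0.693% of all genes). The pattern was singled out after the values were seen, so these shares only describe it. *Aldoa*, for example, was 1.81, 1.57, 1.57 and 1.26 times the mean of the other samples of its group in control cells at 2.8 and 16.7 mM and *Pcbp2*βKO cells at 2.8 and 16.7 mM. Of 12 genes known to respond to low oxygen, 1 (*Ankrd37*) was highest in all 4 samples numbered 1, against 0.693% of all genes. The summed CPM of the 12 in the sample numbered 1 was 1130 in control cells at 2.8 mM (others at most 811). At 16.7 mM it was 776, below the 942 of replicate 2. In *Pcbp2*βKO cells it was 1097 at 2.8 mM (others at most 966) and 857 at 16.7 mM (others at most 835). Neither the labels nor the methods say what a replicate number stands for.

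**Figure D5:**
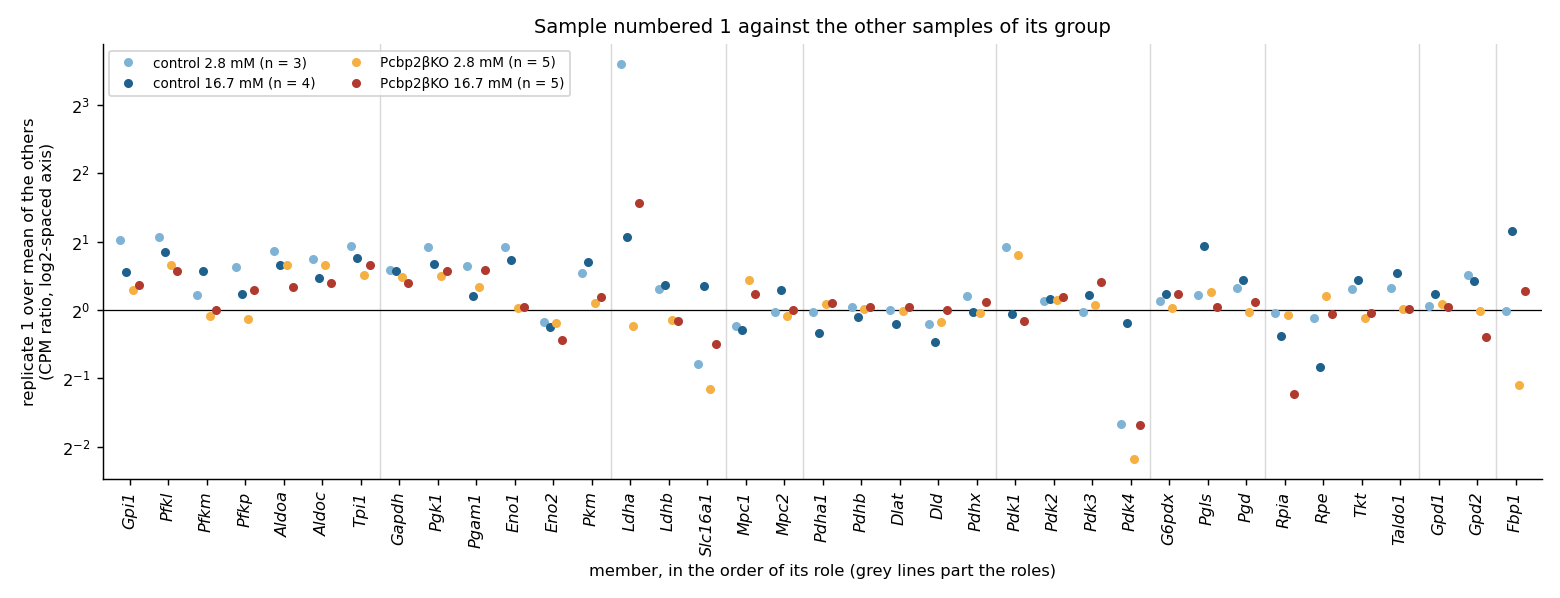
Ratio of the CPM in the sample numbered 1 to the mean CPM of the other samples of its group (log2-spaced axis), for the 37 genes in order of role and each of the 4 groups. The upper glycolysis genes lie mostly above 1, as *Aldoa* does at 1.26 to 1.81.

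Among 28 other genes of these pathways, of which 27 were tested, 4 rose and 0 fell with glucose in control cells (median log2 fold change 0.20), against 7.15% and 6.69% of all genes. These were the lactate exporter *Slc16a3* (4.44), the muscle-type fructose bisphosphatase *Fbp2* (2.72), the muscle-type mutase *Pgam2* (1.60) and the bisphosphoglycerate mutase *Bpgm* (1.00), on the log2 scale. Levels were low for *Slc16a3* (means of 0.10 TPM at 2.8 mM and 1.34 at 16.7 mM), *Fbp2* (0.48 and 1.98) and *Pgam2* (0.46 and 0.81, with overlapping TPM). *Bpgm* stood at 9.89 and 12.9 TPM. With glucose in *Pcbp2*βKO cells, 6 rose and 1 fell (median 0.25, against 13.4% and 10.4% of all genes), with *Slc16a3* at 4.47, *Fbp2* at 2.90, *Pfkfb3*, which makes an activator of phosphofructokinase, at 1.91, *Bpgm* at 1.40, *Pfkfb1* at 0.99 and *Rbks* at 0.87, and the transporter *Slc16a7* at -1.51. Mean TPM there went down for *Pfkfb1* (1.34 to 1.18) and *Rbks* (4.44 to 3.87). It went up for *Slc16a3* (0.12 to 1.05), *Fbp2* (0.62 to 2.50), *Pfkfb3* (1.61 to 2.80) and *Bpgm* (8.53 to 9.93). The knockout changed 0 at 2.8 mM (2.04% of all genes) and 1 at 16.7 mM (1.71%), *Adpgk*, an ADP-dependent glucokinase, at -0.77 (edgeR adjusted p = 0.0162). Of the 12 low-oxygen genes, 0 were called with glucose in control cells by edgeR and 2 fell in *Pcbp2*βKO cells (*P4ha1*, -1.15, and *Bhlhe40*, -0.81), against 10.4% of all genes, and the knockout comparisons called 0.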

How the data were processed

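Sorted β cells of 17 samples in 4 groups were analysed, with groups and replicate numbers from the labels. The authors pseudoaligned 150-nt read pairs to the mouse transcriptome (mm39) with Kallisto and deposited estimated counts per transcript, not normalized between samples, with Kallisto's TPM, scaled to effective length and to a fixed sample total. The estimated counts that the authors deposited were summed per gene over 142376 transcripts, rounded, filtered with edgeR's default expression filter on the 4 groups and scaled by TMM, with a prior count of 2 for log2 CPM. Multi-copy pseudogenes of enzymes such as *Gapdh*, *Aldoa* and *Ldha* could take or lend reads, which was not tested. The second gene identifier named *Aldoa* (at most 0.15% of its counts) was not used.

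The quasi-likelihood F test of edgeR 4.0.16 in R 4.3.3 was fitted to all 17 samples with 4 group means and tested 5 contrasts. The p values were adjusted by Benjamini-Hochberg across all genes tested, and calls needed an adjusted value below 0.05 with a fold above 1.5. Standard errors came from the estimate and its F statistic. Transcript shares were compared by two-sided exact permutation tests (SciPy 1.17.1). The authors' model held a batch term whose levels are not given in the sources used here. Alternatives were DESeq2 1.42.0, limma 3.58.1 on log2(TPM + 1) and log2(TPM + 0.1), other scalings and filters, the replicate number as a block, coding transcripts alone, and omission of each sample. The 3 samples apart on the first component, also omitted, were known from an earlier analysis of these data, and omission of the 4 samples numbered 1 was chosen after seeing the data. Scripts were tested on simulated data. Same-numbered samples of the control glucose comparison deviated together (correlations 0.199, 0.123 and 0.258 for numbers 1 to 3), and each exceeding 0.1, the numbers were taken to pair them. The main test left this pairing out, and only the alternative with the replicate block used it. That block was fitted to all 17 samples, so it also spans comparisons where the numbers were not taken to pair samples. The genes, roles and lists were chosen with earlier results of these data known. From the list of other pathway genes 1 gene is not reported here and was left out of its counts. Every one of the 37 genes is named, and values per sample are given for those called in a contrast or highest in TPM of their role. Depth, from 47385513 to 82419400 counts per sample, sets counting error, which the SD between samples includes.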

Additional observations from a re-analysis of the deposited data

Results flagged for a closer look

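In 8 of 111 gene and group combinations with 4 or 5 samples, 1 sample lay far from the others by Dixon's test at the 95% level, where chance gives about 1 in 20. *Pdhx*, the E3-binding subunit of the pyruvate dehydrogenase complex, reached 20.0 CPM in control replicate 3 at 16.7 mM (nearest 17.9) and 18.5 CPM in *Pcbp2*βKO replicate 5 at 2.8 mM (nearest 15.2). The same replicate 5 was the highest for *Mpc2* (96.9 CPM, nearest 71.3) and for *Tkt* (185 CPM, nearest 123). *Pdk1* reached 97.6 CPM in control replicate 4 at 16.7 mM (nearest 88.4) and *Pgls* 94.5 CPM in control replicate 1 at 16.7 mM (nearest 50.8). *Rpia* reached 5.88 CPM in *Pcbp2*βKO replicate 3 at 2.8 mM (nearest 3.66), and *Taldo1* was lowest in replicate 2 of that group (73.5 CPM, nearest 89.5). None of these 7 genes was called in the group's knockout comparison.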

How the results depend on the processing

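The count of genes called with glucose in control cells was 6, and became 10 with the replicate block, 19 and 21 (0 higher, 30.6% and 39.1% of all genes called) on log2(TPM + 1) and log2(TPM + 0.1), 0 without the samples numbered 1, and 2 to 8 with 1 sample left out (2 without control replicate 2 at 2.8 mM, 3 without control replicate 1 at 16.7 mM). In *Pcbp2*βKO cells 11 became 23 and 24 on the 2 TPM scales (0 higher, 38.8% and 54.6% of all genes called), and 11 to 13 with 1 sample left out. For the knockout at 2.8 mM, 1 became 2 with DESeq2, without the filter, with only the groups compared and without the 3 samples apart, 0 on both TPM scales and without the samples numbered 1, and 0 to 2 with 1 sample left out (0 without control replicate 3, 2 without *Pcbp2*βKO replicate 5). For the knockout at 16.7 mM, 0 became 2 with DESeq2, without the filter and on both TPM scales, 1 with the replicate block, with length-scaled counts and without the 3 samples apart, and 0 to 2 with 1 sample left out (2 without control replicate 4). The interaction stayed at 0 under every alternative. In the comparisons other than glucose in control cells, correlations between same-numbered samples ran from 0.047 to 0.354. Not all exceeded 0.1, so the numbers were not taken to pair the samples there, and whether these samples share more than a number is not known. Besides the 2 counts given above the block moved none.

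With glucose in control cells, estimates turned negative on log2(TPM + 1) for *Pfkp* (-0.11), *Pkm* (-0.17), *Pdk3* (-0.13), *G6pdx* (-0.12) and *Gpd1* (-0.03), and on log2(TPM + 0.1) at -0.12, -0.17, -0.14, -0.12 and -0.03. In *Pcbp2*βKO cells they did so on total counts for *Gapdh* (-0.06), *Pdhb* (-0.19), *Pdhx* (-0.23) and *Taldo1* (-0.08). On log2(TPM + 1) they did so for *Pfkp* (-0.37), *Gapdh* (-0.60), *Pgk1* (-0.43), *Pkm* (-0.16), *Pdhb* (-0.73), *Pdhx* (-0.68), *Pdk1* (-0.30), *Pdk2* (-0.39), *Pdk3* (-0.18), *G6pdx* (-0.13), *Pgd* (-0.30), *Taldo1* (-0.63) and *Gpd2* (-0.22), and on log2(TPM + 0.1), in the same order, at -0.39, -0.60, -0.44, -0.16, -0.74, -0.79, -0.31, -0.42, -0.20, -0.13, -0.32, -0.64 and -0.23. Kallisto's TPM share a fixed total per sample, of which *Ins2* takes more at 16.7 mM, and the median gene moved on these scales by the amounts given with the glucose responses. The cause of the changes was not tested. Of 1063 alternative values of 48 gene estimates, 903 kept direction and side of the threshold, 69 passed it newly, 51 no longer passed and 40 reversed.

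*Slc16a1*, *Ldha* and *Pdk4* had within-group SDs of log2 CPM above those of 98.3%, 99.1% and 96.6% of genes tested, which limits what can be said of them. The groups hold 3 to 5 samples, batch levels are not given, and the meaning of the replicate numbers is not given.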

Other observations

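*Rpe*, the epimerase of the non-oxidative pentose phosphate branch, was not called as a gene, but its leading transcript *Rpe*-201 went from 42.1% ± 4.29 (SD, n = 5) to 58.3% ± 4.02 (n = 5) of *Rpe* TPM with glucose in *Pcbp2*βKO cells, without overlap (exact permutation p = 0.00794, the smallest that 5 against 5 samples can give, and 0.362 adjusted over 76 comparisons). It was singled out after its values were seen.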
